A study of Mus musculus with 2 samples.

Results

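The cells described here are C1q macrophages with VCAM1, CCL8 or FOLR2 in subcutaneous Lewis lung carcinoma (LLC) tumors. A cell was a member if at most 10% of its unique molecular identifiers (UMIs, 1 per captured RNA molecule) came from mitochondrial genes, if C1qa, C1qb and C1qc together had at least 20 UMIs, if Vcam1, Ccl8 and Folr2 together had at least 5, and if Cd3d, Cd3e and Cd3g together had at most 1. Of 5167 deposited cells, 456 met this rule, 202 of 2449 in the library labelled wt and 254 of 2718 in the library labelled cko. Cells that met every other condition with 0 to 4 UMIs of Vcam1, Ccl8 and Folr2 are called the other C1q macrophages, and there were 544 and 688 of them. Members were thus selected on the measured UMIs of these 9 genes, whose values are given as a description only.

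CD45+ cells, the leukocytes, were sorted from LLC tumors 14 days after implantation into C57/BL6 mice labelled as 10 weeks old, and were run on the 10x 3′ version 2 chemistry. LLC is a mouse lung carcinoma line that grows in immunocompetent mice of this strain. The control mice were mir-21 flox/flox, and the conditional knockout mice were mir-21 flox/flox; lysmCre, in which Cre deletes miR-21 wherever lysozyme M has been expressed, chiefly in macrophages and granulocytes and not in T cells. Each genotype gave 1 library from 3 pooled mice. All mice of both groups carried the floxed alleles, and the control had no Cre. The titles name the libraries wt and cko, whereas the text on the cell source gives the Cre-free genotype to the cko title and the knockout to the wt title. The growth protocol speaks of miR-21 null mice and of a CD45+ CD11b+ MHCII+ F4/80+ macrophage sort. Titles were followed, and because of the conflict each library is named here by its label only. With 1 library of pooled mice per group there was no replicate and no test. The intervals are exact 95% intervals that cover counting error only, and genotype, mice and library preparation cannot be told apart.

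C1q, built from the products of C1qa, C1qb and C1qc, starts the classical complement pathway and also binds apoptotic cells, and in tumors its transcripts mark mature macrophages. VCAM1 is an adhesion molecule that binds the integrin α4β1 on leukocytes, CCL8 is a chemokine that attracts monocytes and lymphocytes, and FOLR2 is the folate receptor found on tissue-resident macrophages. Lpl, listed as a further marker, encodes lipoprotein lipase, which frees fatty acids from circulating lipoproteins.

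The libraries held 24492486 (labelled wt) and 27163485 (labelled cko) UMIs. The mitochondrial limit removed 4 and 14 cells and left 2445 and 2704. The libraries shared 5 cell barcodes, and none of them belonged to a member. Cells with at least 5 UMIs of the Cd3 genes and under 20 of the C1q genes, T cells by these genes, numbered 147 and 193, so the libraries were not limited to the macrophage sort that the growth protocol names. Lyz2, the locus that carries the Cre in lysmCre mice, had 15158 UMIs per 1000000 (CPM, from summed UMIs) in the members of the library labelled wt and 7169 in those of the library labelled cko. This is the direction the titles give, and the targeted microRNA itself was not analysed here.

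Members were the deeper of the C1q macrophages. Their median was 19171.5 UMIs in the library labelled wt and 17508 in the library labelled cko, against 10366 and 9656 in the other C1q macrophages, and a minimum of raw UMIs favors deep cells. With both minimums applied to UMIs per 10000 of each cell, 166 and 206 cells were members. At the edge of the rule, 14 and 22 members had exactly 5 UMIs of Vcam1, Ccl8 and Folr2, and 17 and 28 cells with 4 UMIs lay just outside. The C1q minimum was far from most members, with 2 and 1 of them at 20 to 24 C1q UMIs and medians of 328 and 307. The Cd3 limit kept out 5 and 6 cells that met the rest of the rule. Of the other C1q macrophages, 355 (65.3%) and 450 (65.4%) had no UMI of the 3 genes.

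Vcam1 (chr3:116109949-116129688, minus strand, build GRCm38) was spread over most members. The 10 members with the most Vcam1 held 17.2% (labelled wt) and 16.2% (labelled cko) of its UMIs. It had 609 CPM in the members of the library labelled wt and 589 in those of the library labelled cko. A member held a median of 8.5 Vcam1 UMIs in each library, with a highest value of 56 and 65, and 88.6% and 94.9% of members had at least 1.

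Ccl8 (chr11:82115185-82116799, plus strand) was concentrated in few cells. It had 1665 CPM in the library labelled wt and 791 in the library labelled cko, with medians of 4 and 1 UMIs per member and highest values of 819 and 422. The 10 members with the most Ccl8 held 50.5% and 45.5% of its UMIs. At least 20 UMIs were found in 58 members (28.7%, 22.6 to 35.5) of the library labelled wt and in 46 (18.1%, 13.6 to 23.4) of the library labelled cko.

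Folr2 (chr7:101839988-101857194, minus strand) was found in fewer members than Vcam1. Its level was 230 CPM in the library labelled wt and 174 in the library labelled cko, with medians of 2.5 and 1 UMIs and at least 1 UMI in 73.8% and 55.5% of members.

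The 3 genes overlapped in part. All 3 had at least 1 UMI in 103 members (51.0%, 43.9 to 58.1) of the library labelled wt and in 83 (32.7%, 26.9 to 38.8) of the library labelled cko. Vcam1 without the other two was found in 17 (8.42%, 4.98 to 13.1) and 51 (20.1%, 15.3 to 25.5) members. Ccl8 alone marked 4 and 2 members and Folr2 alone 6 and 5. Fewer members of the library labelled cko therefore held all 3 genes, and more held Vcam1 alone.

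Free RNA in the droplets can put UMIs of a gene into cells that do not express it, so T cells of the same libraries were taken as a background. With each cell thinned to 3000 UMIs, at least 1 Vcam1 UMI was found in 70.8% and 72.8% of members and in 2.04% and 2.59% of T cells. For Ccl8 the shares were 51.5% and 36.2% of members against 2.72% and 1.04% of T cells, and for Folr2 40.1% and 27.2% against 0.68% and 0.52%. C1qa itself was found in 12.2% and 14.0% of thinned T cells, whose median depths before thinning were 5796 and 7207 UMIs, and in 99.0% and 99.6% of members.

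**Figure D1:**
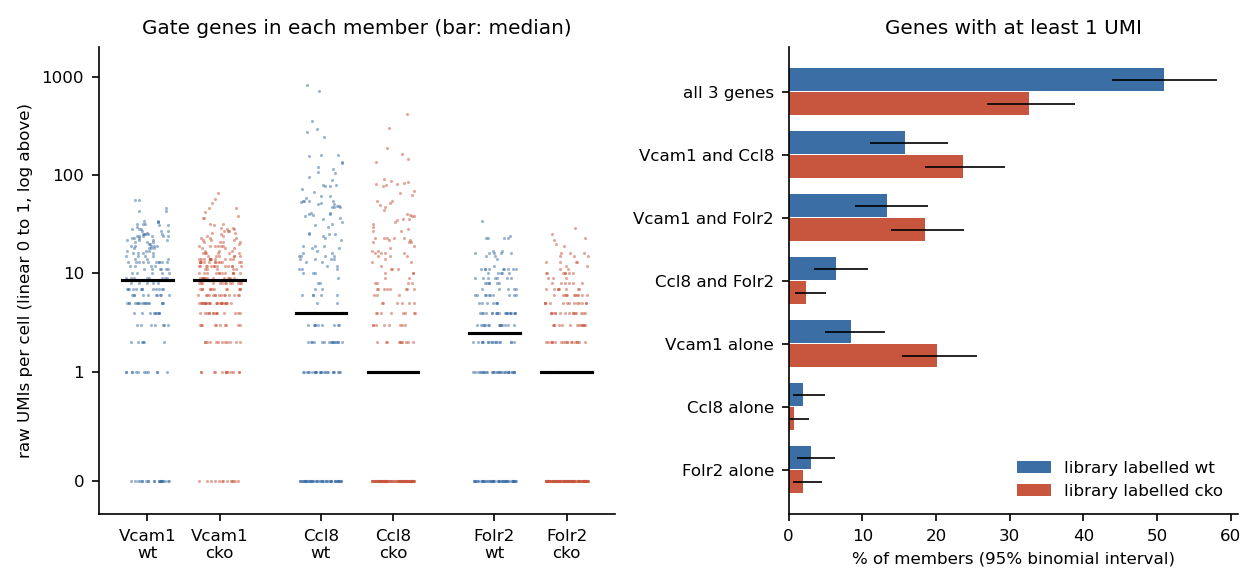
Left, raw UMIs of Vcam1, Ccl8 and Folr2 in each member (1 point per cell, bar at the median, axis linear from 0 to 1 and logarithmic above), and right, the percentage of members with at least 1 UMI of each combination of the genes, with 95% binomial intervals, by library. The medians of Vcam1 were 8.5 in both libraries, whereas those of Ccl8 were 4 (labelled wt) and 1 (labelled cko), with a tail of cells that reached 819 and 422 UMIs, and all 3 genes were found in 51.0% and 32.7% of members.

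The share of members did not differ between the libraries beyond counting error. They were 8.26% (7.20 to 9.42) of the cells kept in the library labelled wt and 9.39% (8.32 to 10.6) in the library labelled cko. The ratio was 1.14 (0.94 to 1.37), an interval that includes 1. Of the C1q macrophages they were 27.1% and 27.0%. The rest of the C1q macrophages differed more in makeup. Cells with at least 5 UMIs of Cd300e, Clec4b1 and Pparg were 101 in the library labelled wt and 203 in the library labelled cko, cells with at least 3 UMIs of Ly6c2, a marker of inflammatory monocytes, were 165 and 139, and the remaining C1q macrophages were 278 and 346. The members themselves overlapped the first of these sets, since 109 (54.0%) and 139 (54.7%) of them also had at least 5 UMIs of Cd300e, Clec4b1 and Pparg. At least 3 UMIs of Ly6c2 were found in 14 members of each library (6.93% and 5.51%).

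The macrophage identity of the label was met by genes outside the rule. Adgre1, Csf1r, Cd68, Fcgr1 and Mertk summed to 2703 and 2516 CPM in members, and to 2457 and 2285 in the other C1q macrophages. The monocyte genes Ly6c2, Ccr2, Plac8 and Chil3 summed to 543 and 683 CPM in members against 3538 and 3218. Lpl was detected in 117 and 132 members. Of the B cell genes, Cd79a and Ms4a1 were at 0 in members of both libraries, and Cd79b was found. The T cell genes, which include Cd3e that the rule limits, summed to 24.0 and 8.87 CPM, the natural killer genes to 6.63 and 7.39, and the dendritic, mast, epithelial, fibroblast, endothelial and erythroid lists to under 10 CPM each. The granulocytic genes S100a8, S100a9, Retnlg, Cxcr2 and Csf3r summed to 389 and 697 CPM. Doublet scores marked 2 members of the library labelled wt and 1 of the library labelled cko.

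The members differed from the other C1q macrophages along genes of resident-type and monocyte-type macrophages. Members were high for Igf1, Cbr2, Slc40a1, Gas6 and Cd63 and low for Ly6c2, Plac8, Ccr2, Chil3 and Spp1, in both libraries. Low Ly6c2 was shared with the remaining set, and low Chil3 and Spp1 with the set with Cd300e, Clec4b1 and Pparg. Among 8348 genes with at least 50 UMIs in the C1q macrophages of each library, 157 were at least 2-fold higher in members in both libraries (1.88%) and 124 at least 2-fold lower (1.49%). The rule separated these same cells, so the counts describe what it separated and nothing is read from them. The log2 ratios of the 2 libraries had r = 0.784 across these genes, which are not independent replicates, and no gene was 2-fold higher in one library and 2-fold lower in the other.

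The growth factor Igf1 stood farthest apart. It had 86.0 CPM in members and 2.72 in the other C1q macrophages of the library labelled wt, and 44.1 against 2.12 in the library labelled cko, log2 differences of 4.98 and 4.38. Cbr2, a carbonyl reductase, had 135 CPM against 7.69 in the library labelled wt and 84.4 against 8.35 in the library labelled cko. Fcna, which encodes ficolin A, a lectin that can start complement activation, was higher by 4.01 and 3.05 on the log2 scale.

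Slc40a1, Gas6 and Cd63 were on the same side. Slc40a1 encodes ferroportin, the iron exporter of the cell, and had 257 CPM in members against 14.3 in the library labelled wt and 203 against 23.1 in the library labelled cko. Gas6 encodes a bridging ligand of the Axl and Mertk receptors that bind apoptotic cells, and had 214 CPM against 18.0 and 153 against 19.9. Cd63, a tetraspanin of late endosomes and lysosomes, had 1296 CPM against 278 and 1106 against 261.

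Among the other genes named by size were enzymes and receptors. Npl, an enzyme of sialic acid breakdown, was higher in members by 3.20 and 3.18 on the log2 scale, Ptgs1, which encodes cyclooxygenase 1, by 3.27 and 2.42, and Fcrls, an Fc receptor-like gene, by 2.19 and 2.73. Lag3, an inhibitory receptor better known from T cells, had 18.1 CPM in members against 1.44 and 20.3 against 4.24. The remaining named genes on this side were Gdpd1, Cmbl, Serpinb6a, Cela1 and Actn1, with log2 differences of 1.92 to 3.24.

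Genes that mark recruited monocytes were lower in members. Ccr2, the receptor that draws monocytes from blood, had 111 CPM in members against 548 in the library labelled wt and 123 against 537 in the library labelled cko. Plac8 had 339 CPM against 2356 and 426 against 1955. Ly6c2 was lower by log2 differences of -2.88 and -3.10, and its reads can be shared with the near-identical Ly6c1. This gap rested largely on the set defined by Ly6c2, at 1040 and 1158 CPM. The remaining set had 54.6 and 40.2 CPM of Ly6c2, close to the 50.8 and 32.5 of members. Chil3, a chitinase-like protein of monocytes and alternatively activated macrophages, differed by -2.63 and -2.15, and Spp1, which encodes osteopontin, by -2.15 and -3.14. The set with Cd300e, Clec4b1 and Pparg was near the members for both. It had 71.8 and 101 CPM of Chil3 against 42.1 and 101, and 24.8 and 43.6 CPM of Spp1 against 57.2 and 36.5. Il1r2, the decoy receptor of interleukin 1, differed by -2.58 and -1.89. Prtn3 and Il7r were nearly absent from members, with 3 and 6 UMIs of Prtn3 and 4 and 4 UMIs of Il7r. The other named genes on this side were Ifitm1, Ifitm6, Napsa, Pbxip1, Ly6i, F10 and Vcan.

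Depth was narrowed but not matched by taking cells of 10000 to 25000 UMIs only. These were 119 and 176 members, with median depths of 17471 and 16717 UMIs, and 283 and 313 other C1q macrophages, with 13436 and 13069. All 30 named genes, picked for their large differences, kept their direction in both libraries. There Igf1 differed by 5.11 and 4.60, Gas6 by 3.63 and 2.87, Ly6c2 by -2.65 and -3.04 and Il1r2 by -2.03 and -1.41.

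**Figure D2:**
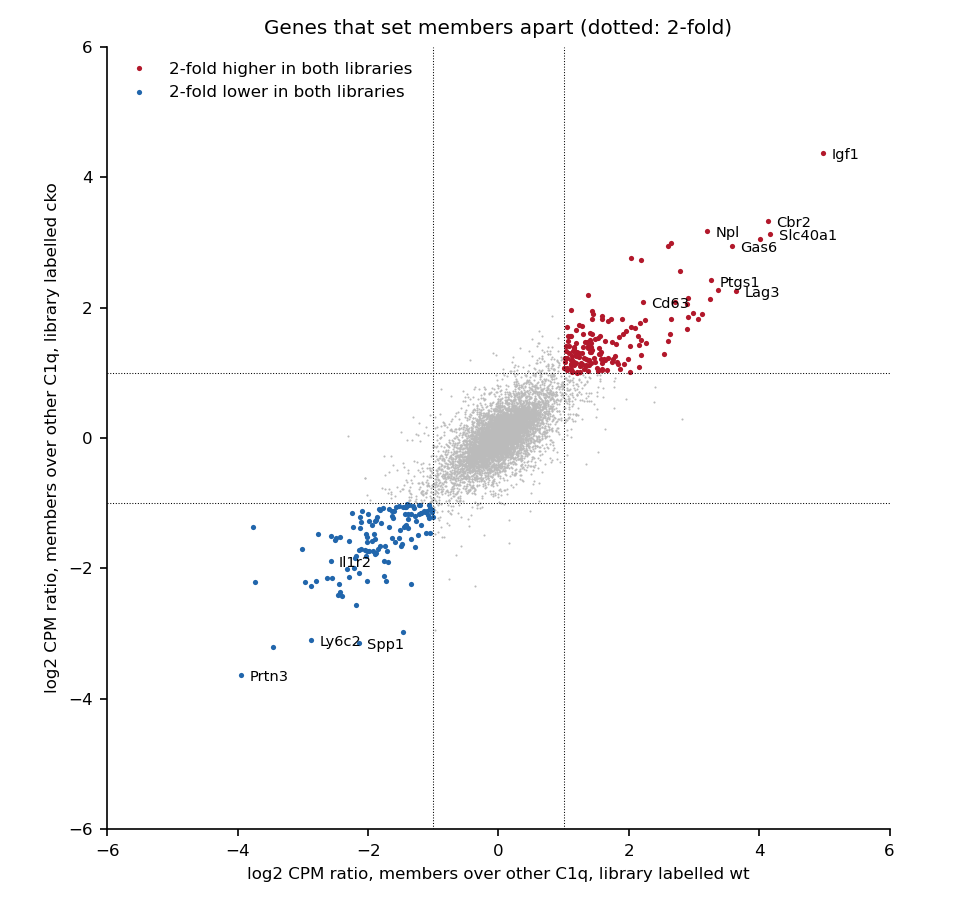
Log2 ratio of CPM in members over the other C1q macrophages, library labelled wt on the x axis and library labelled cko on the y axis, 1 point per gene among 8348 genes, with dotted lines at 2-fold and some of the named genes labelled. Of these, 157 genes lie above 2-fold and 124 below 2-fold in both libraries, with Igf1 at 4.98 and 4.38 and Ly6c2 at -2.88 and -3.10.

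Of the 20 genes listed for resident-type macrophages, 14 had enough UMIs, and 10 of these were at least 2-fold higher in members in both libraries: Cd163, Mrc1, Stab1, Sepp1, Cbr2, Gas6, Pf4, Igf1, Fcna and Slc40a1. The intervals of 2 others, F13a1 among them, lay below 0 in both libraries. The list's median log2 difference was 1.56 and 1.67, beside 0.05 and 0.04 over all genes tested. For the interval counts of the lists that follow, 15.1% of all 8348 genes had intervals above 0 in both libraries and 11.1% below 0. The mannose receptor Mrc1 had 379 CPM in members against 174, and 266 against 111, with 229 and 154 in the remaining set. Cd163, the hemoglobin scavenger receptor, had 13.3 CPM against 1.28 and 14.1 against 2.92. Several genes that define resident macrophages of other tissues were at or near 0 in members. Lyve1 had 0 and 0.42 CPM, Timd4 0.51 and 0.42, Vsig4 0 and 0.21, and Cd209f 0 in both.

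Of the 15 monocyte genes, all tested, 12 were at least 2-fold lower in members and none higher, with medians of -2.15 and -2.07. The 8 MHC class II genes, which present antigen to CD4 T cells, did not reach 2-fold in both libraries, and all 8 intervals lay below 0 in each. Their median was -0.83 in the library labelled wt and -0.36 in the library labelled cko. H2-Aa had 4964 CPM in members against 8804 in the library labelled wt and 5894 against 7720 in the library labelled cko, so the gap was smaller in the latter.

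The 16 cell cycle genes were all higher in members in both libraries by their intervals, and 6 of them by 2-fold (Mki67, Ccnb1, Ccnb2, Cdk1, Birc5 and Stmn1). Mki67, the proliferation antigen, had 33.2 CPM against 14.9 and 60.2 against 27.7. The microtubule regulator Stmn1 had 256 and 359 CPM in members, 238 and 354 in the set with Cd300e, Clec4b1 and Pparg, and 45.0 and 49.7 in the remaining C1q macrophages. This list thus set the members and that one set apart from the rest. Both were also the deepest, with medians of 15816 and 12357 UMIs in the set with Cd300e, Clec4b1 and Pparg and 9176 and 8828.5 in the remaining set. The part of depth in this contrast was not tested.

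Of the 11 iron and heme genes, 10 intervals lay above 0 in both libraries, and Slc40a1, Cd163 and the transferrin gene Trf reached 2-fold. Hmox1, the heme-degrading enzyme, was at 412 CPM in members of both libraries, against 387 and 359 in the other C1q macrophages. Of 20 lysosomal genes tested, 15 were above 0 and 2 reached 2-fold, the protease gene Ctsb and Cd63. In the lipid list of 17 genes tested, Lpl, the cholesterol exporter Abca1 and its regulator Nr1h3 were higher and Spp1 and Cd9 lower. The set with Cd300e, Clec4b1 and Pparg lay closer to members for Nr1h3, at 133 and 170 CPM against 194 and 215. For Lpl it had 74.3 and 115 CPM against 255 and 153 in members. Spic, a transcription factor of iron-recycling macrophages, had 123 and 142 CPM in members, 72.4 and 85.1 in the set with Cd300e, Clec4b1 and Pparg, and 16.8 and 21.3 in the remaining set.

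The members also carried monocyte-attracting chemokines other than Ccl8. Ccl7 had 947 CPM in members against 390 in the library labelled wt and 701 against 213 in the library labelled cko, and Ccl12 had 569 against 178 and 662 against 192. Ccl2 did not reach 2-fold, at 545 against 336 and 611 against 306. Ccl5 was lower, at 30.1 against 102 and 25.1 against 109, and was highest in the set with Ly6c2 at 226 and 417 CPM. Of 18 chemokine and receptor genes tested, 2 were higher and 2 lower.

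Of 22 transcription factor genes tested, Nr1h3 and Spic were higher and Bhlhe40 lower, of 11 polarization genes Mrc1 higher and Chil3 lower, and of 11 angiogenesis genes Mrc1 and Mmp9 higher and Thbs1 lower. Mmp9 had 46.4 and 52.8 CPM in members and 20.4 and 45.4 in the remaining set. Other groups showed smaller shifts. None of the 19 interferon genes reached 2-fold in both libraries and 9 intervals lay below 0, while 13 of 14 hypoxia and glycolysis genes lay below 0 with Ndrg1 and Egln3 at least 2-fold lower. Of 16 immediate-early and heat shock genes 12 lay below 0, with Hspa1b at least 2-fold lower. Of the scavenger list of 14 genes, Gas6, Stab1 and Mrc1 were higher and Havcr2, which encodes TIM-3, lower. No gene of the complement and Fc list (13 tested), of the Notch list (5) or of the proinflammatory list (7) reached 2-fold in both libraries. In the folate list the folate transporter gene Slc46a1 was the only one of 11, at 8.93 CPM against 4.17 and 7.81 against 2.65, and Itgb7 was the only one of 11 adhesion genes, lower in members. Itga4, the α4 chain that binds VCAM1, had 49.8 and 51.5 CPM in members and 66.2 and 74.1 in the other C1q macrophages.

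**Figure D3:**
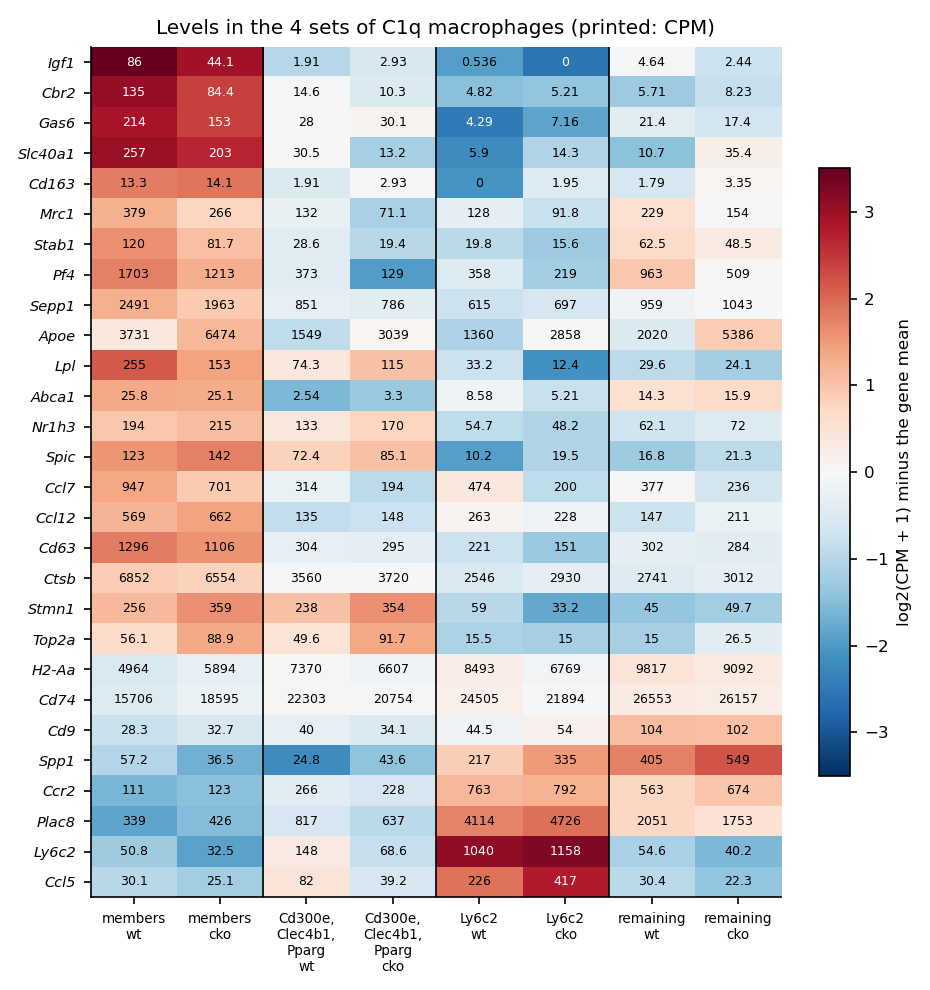
CPM of listed genes (rows) in the 4 sets of C1q macrophages of each library (columns), printed in each cell and colored by log2 of CPM plus 1 minus the mean of the gene over the 8 columns. Igf1 has 86.0 and 44.1 CPM in members and at most 4.64 in any other set, whereas Stmn1 has 256 and 359 CPM in members and 238 and 354 in the set with Cd300e, Clec4b1 and Pparg.

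Members were also divided by the gene of the 3 with the most UMIs. Vcam1 led in 94 members of the library labelled wt (46.5%, 39.5 to 53.7) and 152 of the library labelled cko (59.8%, 53.5 to 65.9). Ccl8 led in 74 (36.6%, 29.98 to 43.7) and 71 (28.0%, 22.5 to 33.9), Folr2 led in 26 (12.9%, 8.58 to 18.3) and 28 (11.0%, 7.45 to 15.5), and 8 and 3 members were tied. These shares use the genes of the rule and are a description.

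Few genes met a strict rule for a subset, with 26 and 28 cells in the smallest. Of 6118 genes with at least 50 UMIs in members of each library, 0 (0%) were 2-fold higher in the Vcam1-led subset than in both other subsets in both libraries, 1 (0.0163%) in the Ccl8-led subset, which was Rsad2, and 2 (0.0327%) in the Folr2-led subset, which were Mmp9 and Rasgrp4. Rsad2, the interferon-induced antiviral gene viperin, had 90.3 CPM in the Ccl8-led subset of the library labelled wt, against 30.9 in the Vcam1-led and 20.4 in the Folr2-led subset. In the library labelled cko its levels were 102, 41.9 and 15.5 in the same order. The ubiquitin-like Isg15, also interferon-induced, had 402, 230 and 250 CPM in the library labelled wt and 385, 228 and 143 in the library labelled cko. The 19 interferon genes summed to 3021 and 3413 CPM in the Ccl8-led, 2294 and 2326 in the Vcam1-led and 2431 and 1592 in the Folr2-led subset. Pml, Fxyd2, Abcd4 and A530040E14Rik were the other genes named for the Ccl8-led subset.

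The Folr2-led subset, with 26 and 28 cells, was highest for Mmp9 and for S100a4 and S100a6. Mmp9, a gelatinase of the extracellular matrix, had 132 CPM there in the library labelled wt, against 27.1 in the Vcam1-led and 41.9 in the Ccl8-led subset, and 165 against 54.4 and 11.7 in the library labelled cko. When a lead required 2 of 3 of the summed UMIs, the lead of Mmp9 in this subset was lost. The calcium-binding S100a6 had 1016 CPM against 507 and 371 in the library labelled wt and 920 against 518 and 394 in the library labelled cko. S100a4 had 243 CPM against 88.5 and 65.7, and 194 against 110 and 75.3. Rasgrp4, AI467606 and Gab3 were the other genes named for this subset.

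The Vcam1-led subset was highest for Siglece, an inhibitory sialic acid receptor, for Pparg, the lipid-sensing nuclear receptor, and for Rgs1, a regulator of chemokine receptor signaling. Siglece had 144 CPM in the library labelled wt against 55.6 in the Ccl8-led and 33.4 in the Folr2-led subset, and 177 against 84.9 and 94.9 in the library labelled cko. Pparg had 58.6 CPM against 37.5 and 38.9, and 90.0 against 49.0 and 42.6. Asb2, Lpcat1 and Ankrd12 were the other named genes. The resident-type genes were lowest in this subset, with a sum of 4765 CPM in the library labelled wt against 8085 (Ccl8-led) and 7217 (Folr2-led), and 4273 against 5842 and 5512 in the library labelled cko.

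**Figure D4:**
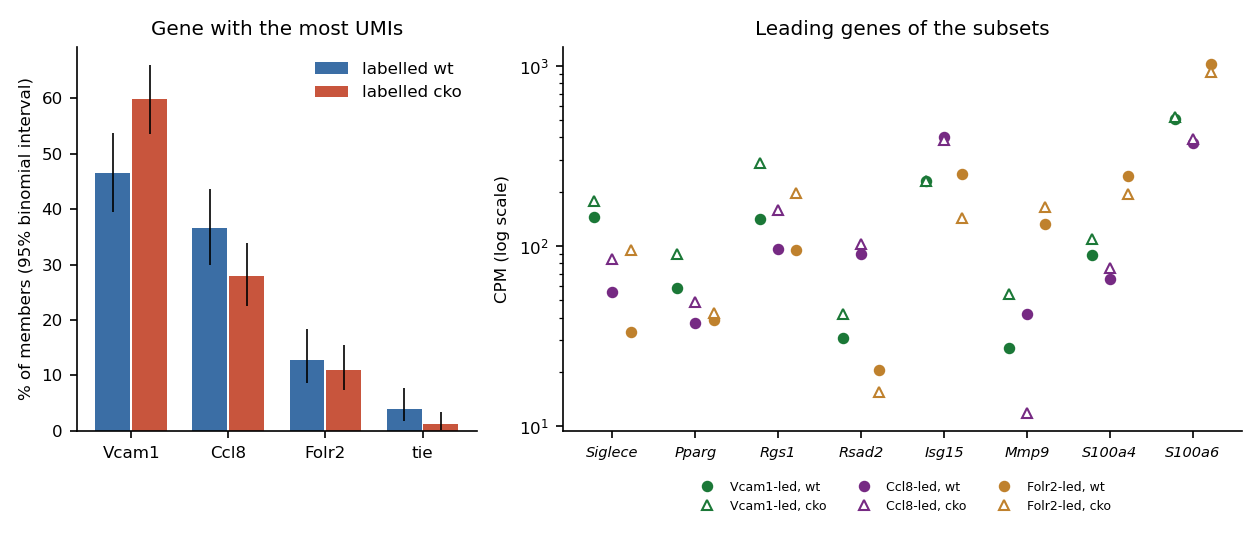
Left, percentage of members led by each gene or tied, with 95% binomial intervals, by library, and right, CPM on a log scale of 8 genes named for the subsets, in members led by Vcam1, Ccl8 or Folr2 (filled circles labelled wt, open triangles labelled cko). Rsad2 is highest in the Ccl8-led subset (90.3 and 102 CPM) and S100a6 in the Folr2-led subset (1016 and 920 CPM), and Siglece in the Vcam1-led subset (144 and 177 CPM).

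The study compared mice with and without miR-21 in myeloid cells, and the same comparison was made within the members. The members of the library labelled cko had less Tgfb1, Lyz2, Igf1, Fcrls and Lpl and more Lyz1, Apoe, Tgfbi, interferon-induced Ifi44l and Gbp2b, and cell cycle transcripts than those of the library labelled wt. Of 6487 genes with at least 100 UMIs in members over both libraries, 218 were at least 1.5-fold higher in the library labelled cko (3.36%) and 54 at least 1.5-fold lower (0.832%). The median of all these genes was 0.03 on the log2 scale, and their 5th and 95th percentiles were -0.33 and 0.49.

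Tgfb1, which encodes the immunosuppressive cytokine TGF-β1, had 533 CPM in the library labelled wt and 189 in the library labelled cko, a log2 difference of -1.50 (-1.61 to -1.39). The other C1q macrophages had a like difference of -1.42. The T cells of the same libraries had 167 and 66.1 CPM of Tgfb1, with a UMI in 36.1% and 15.03% of them after thinning, so the lower level was not limited to macrophages. No alternative setting moved the value in members outside -1.55 to -1.43. Lyz2 differed by -1.08 (-1.10 to -1.06) and by -1.15 in the other C1q macrophages. Lyz1, a close paralog of Lyz2 whose reads may not be told apart from it in full, went the other way, from 41.8 to 246 CPM, by 2.56 (2.32 to 2.80) in members and 2.84 in the other C1q macrophages. At least 1 Lyz1 UMI was found in 40.6% of members of both libraries, and after thinning in 10.4% (6.55 to 15.5) and 15.7% (11.5 to 20.8). Both lysozyme differences were therefore as large outside the members.

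The growth factor and lipid genes were followed in both sets of cells. Igf1 had 86.0 CPM in the library labelled wt and 44.1 in the library labelled cko (log2 -0.96, -1.22 to -0.71), with UMIs in 84 and 78 members. In the other C1q macrophages, where it had 2.72 and 2.12 CPM, the difference was -0.36 with a wide interval of -1.44 to 0.71. Among members with under 5 UMIs of Cd300e, Clec4b1 and Pparg the difference was -0.24. Lpl had 255 and 153 CPM (-0.73, -0.87 to -0.59) and was 0.38 higher in the pooled other C1q macrophages. Of the sets in that pool, Lpl rose only in the set with Cd300e, Clec4b1 and Pparg (74.3 to 115 CPM). That set had 101 and 203 cells. Lpl fell in the Ly6c2 set (33.2 to 12.4 CPM) and in the remaining set (29.6 to 24.1 CPM). Within members of 10000 to 25000 UMIs the Lpl difference was -0.35, and with at least 10 UMIs of Vcam1, Ccl8 and Folr2 it was -1.09. Apoe, the lipoprotein of cholesterol transport, went from 3731 to 6474 CPM (0.80, 0.77 to 0.82) in members and was 1.24 higher in the other C1q macrophages. Of the 14 lipid genes tested, Apoe was at least 1.5-fold higher, Lpl and Spp1 were at least 1.5-fold lower and the median was 0.00, against 0.15 in the other C1q macrophages.

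Of the resident-type genes, those that marked the members most, 10 of 14 intervals lay below 0 in the library labelled cko, beside 7.01% of all genes, and 2 genes passed 1.5-fold, Igf1 and Cbr2 (-0.68). The intervals of 2 genes lay above 0, with F13a1 at 0.23. The list's median was -0.41 in members and 0.13 in the other C1q macrophages, beside 0.03 over all genes. Npl, which is not on the list, had 123 and 72.0 CPM (-0.78), and Fcrls 123 and 66.1 (-0.89). The share of members in each subset differed between the libraries, so values were also computed with equal weight for the 3 subsets, a setting chosen after seeing the data. Igf1 was then -0.73, Cbr2 -0.46, Npl -0.45 and Fcrls -0.50. Slc40a1 differed by -0.34 (-0.47 to -0.21), but by 0.04 within members of 10000 to 25000 UMIs.

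The rule genes are given for description. Ccl8 differed by -1.07, Folr2 by -0.40 and Vcam1 by -0.05 on the log2 scale, and Folr2 by -0.02 among members with under 5 UMIs of Cd300e, Clec4b1 and Pparg. Ccl7 differed by -0.43 and Ccl12 by 0.22. Cx3cr1, the fractalkine receptor, differed by -0.80 in all members but by 0.04 among those with under 5 UMIs of Cd300e, Clec4b1 and Pparg. Ccl3 (0.68) and Ccrl2 (1.34) were at least 1.5-fold higher. Cxcl10 had 185 and 193 CPM (0.06, -0.08 to 0.20) in members and was 0.81 lower on the log2 scale in the other C1q macrophages of the library labelled cko. Il12a had no UMI in members of either library, and Il12b had 0 and 0.84 CPM, so neither could be compared at this depth.

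Interferon-induced genes were among the largest differences, although the median of the 19 listed interferon genes was 0.03. Ifi44l had 4.34 CPM in the library labelled wt and 28.5 in the library labelled cko, a difference of 2.72 (1.98 to 3.54), with UMIs in 12 and 58 members. In the other C1q macrophages it was 1.28 higher. Gbp2b, an interferon-induced GTPase, had 36.2 and 104 CPM (1.53, 1.26 to 1.81), and Ifi44 19.4 and 50.03 (1.37, 0.99 to 1.76). Within members of 10000 to 25000 UMIs the differences were 1.80 for Ifi44l, 0.87 for Gbp2b and 0.33 for Ifi44. Of the listed interferon genes, which hold neither Ifi44l nor Gbp2b, Ifi44 alone passed 1.5-fold.

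The 16 cell cycle genes all had intervals above 0 in the library labelled cko, beside 12.7% of all genes, and 8 passed 1.5-fold. Mki67 had 33.2 and 60.2 CPM (0.86, 0.55 to 1.17) and Top2a 56.1 and 88.9 (0.66, 0.42 to 0.90). The median of the list was 0.59 in members and 0.40 in the pooled other C1q macrophages. Of the sets in that pool, only the set with Cd300e, Clec4b1 and Pparg rose in summed CPM of the list (1331 to 1813). That set had 101 and 203 cells. The sum was 558 and 489 CPM in the Ly6c2 set and 527 and 509 in the remaining set. The part of set makeup in the value of 0.40 was not tested. Within members of 10000 to 25000 UMIs Mki67 differed by 0.40 and Top2a by 0.33.

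The MHC class II genes were slightly higher in members of the library labelled cko. Of 8 genes, 7 intervals lay above 0, the median was 0.25, and H2-DMb2 (0.75) passed 1.5-fold. In the other C1q macrophages the median was -0.12. H2-Ab1, for example, had 6541 and 7803 CPM in members and 11581 and 10467 in the other C1q macrophages. These opposite directions are the same values as the smaller gap between members and the other C1q macrophages in the library labelled cko.

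Several of the genes with the largest ratios rested on few cells or on RNA also found in T cells. Slpi, an antiprotease, had 18.1 and 48.3 CPM (1.42), but 115 of its 229 UMIs in the library labelled cko lay in 1 cell, and without the top cell of each library the difference was 0.78. A Slpi UMI was found in like shares of thinned members (4.46% and 6.69%) and thinned T cells (4.76% and 5.18%). Ppbp, a platelet chemokine, had 26.8 and 13.5 CPM (-0.99), with 35 of 105 UMIs of the library labelled wt in 1 cell, and it was 0.37 higher among members with at least 10 UMIs of Vcam1, Ccl8 and Folr2. S100a8, an alarmin abundant in granulocytes, had 187 and 370 CPM (0.98) and differed by -0.09 in the other C1q macrophages. After thinning, an S100a8 UMI was found in 34.7% and 43.3% of members and in 42.9% and 46.6% of T cells, and S100a8 had 293 and 179 CPM in T cells. The share in members was thus not above the background, and its difference between the libraries is not read as expression. Chil3 had 42.1 and 101 CPM (1.27), with 9.90% and 16.5% of thinned members and 5.44% and 11.9% of thinned T cells. In T cells Chil3 had 21.7 and 116 CPM, so in the library labelled cko its level in members was not above the background. The Chil3 difference between the libraries is not read as expression either. The granulocytic marker list, which holds S100a8 and S100a9, moved with these genes, and its part in the result was not tested.

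The remaining named genes were Gm5900 (1.65), the metallothionein Mt2 (1.55) and Rgs1 (1.02) on the higher side, and Rpgrip1 (-1.92), Prune2 (-1.83) and the plasma glutathione peroxidase Gpx3 (-0.95) on the lower side. Rgs1 had 117 and 237 CPM and differed by 1.00 in the other C1q macrophages too. An Rgs1 UMI was found in 28.2% and 37.4% of thinned members and in 40.1% and 43.0% of thinned T cells. Prune2 had 22.5 and 6.33 CPM in members, with UMIs in 59 and 25 of them, and was at 3.20 and 5.17 CPM in the other C1q macrophages. Among the listed groups, the immediate-early and stress genes Fos (0.66), Ier2 (0.66), Dusp1 (0.75) and Hspa1a (0.80), the hypoxia genes Slc2a1 (0.80) and Ndrg1 (0.91), the complement gene C3 (0.62), and the monocyte genes Chil3, Hp and Thbs1 were at least 1.5-fold higher. Of these, Chil3 was not above its T cell background in the library labelled cko. Ly6c2 was the only one of 12 tested monocyte genes that was at least 1.5-fold lower. No gene of the iron (10 tested), lysosome (20) or scavenger list (13) passed 1.5-fold.

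**Figure D5:**
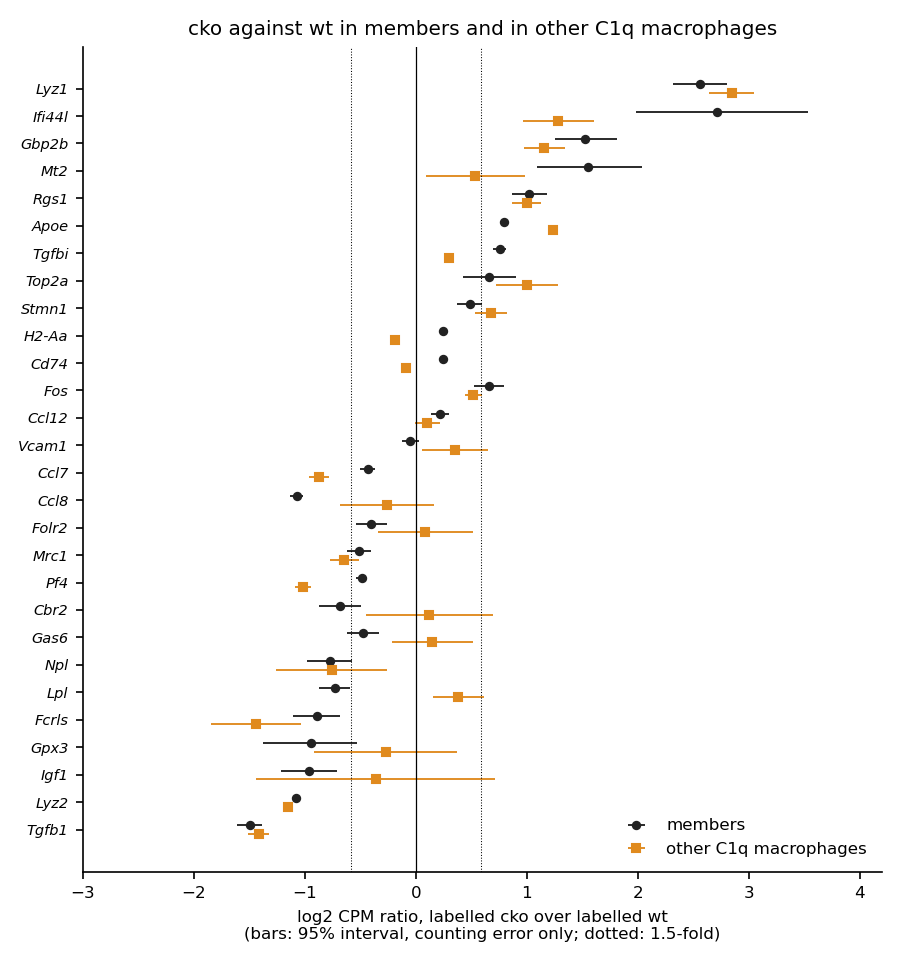
Log2 ratio of CPM in the library labelled cko over the library labelled wt, in members (black circles) and in the other C1q macrophages (orange squares) for 28 genes of the text and of the rule, with 95% counting intervals and dotted lines at 1.5-fold. Tgfb1 (-1.50 and -1.42), Lyz2 (-1.08 and -1.15) and Lyz1 (2.56 and 2.84) moved alike in both sets of cells. Lpl was at -0.73 in members and 0.38 in the pooled other C1q macrophages. Of the sets in that pool, Lpl rose only in the set with Cd300e, Clec4b1 and Pparg (74.3 to 115 CPM). It fell in the Ly6c2 set (33.2 to 12.4 CPM) and in the remaining set (29.6 to 24.1 CPM).

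MicroRNAs pair through their seed, bases 2 to 8, with sites in the 3′ untranslated region (UTR) of messenger RNAs and lower their level, and miR-21 is known to repress Pdcd4 among other genes. The mature strand is shown because its seed, in capitals, defines the sites searched for. It is 22 bases long, lies at chr11:86584120-86584141 on the minus strand within a hairpin at chr11:86584067-86584158, and is given as in RefSeq (build GRCm38.p6).
miR-21a-5p: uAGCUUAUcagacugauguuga
Sites were searched on the transcript strand of the longest annotated 3′ UTR of each gene (GENCODE vM21, build GRCm38), as ATAAGCTA (8-mer), ATAAGCT without the final A (7-mer m8) or TAAGCTA without the first A (7-mer A1). Of the genes with a 3′ UTR, 2.09% of all 20613 annotated and 1.79% of the 6384 compared in members held an 8-mer site.

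The 114 genes with an 8-mer site had a median log2 difference of 0.11 between the libraries in members and 0.06 in the other C1q macrophages, beside 0.03 for the 5676 genes with no site in both sets of cells. Of the 114, 9 (7.89%) were at least 1.5-fold higher in members of the library labelled cko and none lower, where 3.19% of genes with no site were higher. The 9 genes were Tgfbi, Arl4a, Plp2, Rasgrp1, Skp2, Slc35a5, Spg20, Taf7 and Tipin, and other than Tgfbi they had 98, 133, 87, 172, 107, 108, 148 and 283 UMIs in the library labelled cko. Genes with a 7-mer m8 site (324) had a median of 0.06, and those with a 7-mer A1 site (270) of 0.02. The classes were not matched for UTR length or expression, and nothing particular to the 8-mer class is read from these counts.

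Sites are shown for 5 of the genes with a known role in macrophages or as miR-21 targets, with the 8-mer in capitals, 28 bases each, on the transcript strand.
Tgfbi, chr13:56639170-56639197, plus: gaaacggcatcactATAAGCTAtgagtt
Peli1, chr11:21148541-21148568, plus: tgcattgtaagtttATAAGCTAagtgat
Pdcd4, chr19:53929418-53929445, plus: gtgtgggtgttctgATAAGCTActttct
Ctsl, chr13:64359553-64359580, minus: agttttgctaagctATAAGCTAtaatct
Maf, chr8:115702463-115702490, minus: ctgtctccaagcatATAAGCTAgggata
The 5 genes shared the site and differed in direction. Tgfbi, an extracellular matrix protein induced by TGF-β, had 922 CPM in the library labelled wt and 1555 in the library labelled cko (0.75, 0.70 to 0.81), and 0.30 in the other C1q macrophages. Peli1, a ubiquitin ligase of Toll-like receptor signaling, had 50.3 and 63.1 CPM (0.33, 0.06 to 0.60). Pdcd4 had 34 UMIs in the library labelled wt and was too sparse, at -0.08 (-0.78 to 0.63). Ctsl, a lysosomal protease, differed by -0.42 (-0.50 to -0.35) and Maf, a transcription factor of macrophages, by -0.26 (-0.37 to -0.15). Of the genes looked up, Notch2 (-0.32, -0.64 to 0.003), Rsad2 (0.20, -0.08 to 0.47) and Itgav (0.00217, -0.53 to 0.53) also held the 8-mer. So did Spry2, which was too sparse with 9 and 2 UMIs (-2.44, -5.69 to -0.17), and the listed target Smad7, with 22.5 and 22.4 CPM. Bhlhe41, Il12a, Jag1, Reck, Spry1 and Timp3 held it too and had too few UMIs to compare. The sites of these genes are not shown. Of 15 genes listed as miR-21 targets, 9 had enough UMIs. Tgfbi and Btg2 (0.60) were at least 1.5-fold higher, beside 3.36% of all genes, and none was at least 1.5-fold lower. Tpm1 (-0.39, -0.69 to -0.10) and Tgfbr2 (-0.30, -0.61 to -0.004) had intervals below 0. The median was 0.14 in members and 0.23 in the other C1q macrophages.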

How the data were processed

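The authors deposited raw UMI counts per gene and cell for 27998 genes, and the labels name Cell Ranger, Seurat and build mm10 without versions. Counts were used as deposited, and symbols in more than 1 row (56) were left out of named results. For each set of cells UMIs were summed per gene and divided by the summed total (CPM). Log2 ratios have exact conditional binomial intervals and shares have Clopper-Pearson intervals, at 95%, for counting error only. Depth is given in the report, and a count of 0 allows up to 3 UMIs.

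Members against the other C1q macrophages were compared on genes with at least 50 UMIs per library, with a call at 2-fold in both. The library labelled cko was compared with that labelled wt on genes with at least 100 UMIs, with a call at 1.5-fold. Named genes were the 15 (members) or 10 (cko against wt) genes each way, and 6 per subset, whose interval bound or least ratio lay farthest from 0, plus listed genes by role. On simulated counts 91% of 2-fold changes (cko against wt) and 96% of 4-fold changes (members) were recovered. Cells were thinned to 3000 UMIs for shares compared across depths. Scrublet (in scanpy 1.11.5) marked the highest scores at 0.8% per 1000 cells, and these cells were removed in an alternative only. Python 3.11.15, numpy 2.4.6, scipy 1.17.1, pandas 2.3.3 and matplotlib 3.10.9 were used. The members, gene lists and comparisons were chosen with earlier results of these data known. Some genes are not reported here.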

Additional observations from a re-analysis of the deposited data

Results flagged for a closer look

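For 22 of 250 tested genes that were listed or named, the ratio of the library labelled cko over that labelled wt had opposite signs in members and in the other C1q macrophages, with neither interval including 0. Over all 6487 tested genes this held for 61 (0.94%), so which genes appear here depends on the lists. With 1 library per group the difference was not tested. The other C1q macrophages were pooled here, and their sets, whose shares differed between the libraries, did not all move alike. On the log2 scale in members and then in the other C1q macrophages, Cd74 was at 0.24 and -0.09, H2-Aa at 0.25 and -0.19, H2-Ab1 at 0.25 and -0.15, H2-Eb1 at 0.28 and -0.22, H2-DMa at 0.15 and -0.09 and H2-DMb1 at 0.12 and -0.06. The lipid and iron transporters Abcg1 (-0.23 and 0.69) and Slc40a1 (-0.34 and 0.69), the lipase Lpl (-0.73 and 0.38), Spp1 (-0.65 and 0.35) and the selenoprotein Sepp1 (-0.34 and 0.09) were lower in the library labelled cko in members and higher in it in the others. Lpl rose only in the set with Cd300e, Clec4b1 and Pparg (74.3 to 115 CPM), whereas Slc40a1 (30.5 to 13.2 CPM) and Sepp1 (851 to 786 CPM) fell in that set. The platelet chemokine Ppbp (-0.99 and 0.42), the elastase Mmp12 (-0.30 and 0.32), Ctsb (-0.064 and 0.17) and the Fc receptor chain Fcer1g (-0.13 and 0.07) had the same signs. Ppbp rose only in the remaining set (93.2 to 139 CPM), with UMIs in 5.40% and 4.05% of its cells. It fell in the set with Cd300e, Clec4b1 and Pparg (6.35 to 0.37 CPM) and in the Ly6c2 set (5.90 to 0.65 CPM). The reverse signs, higher in members and lower in the others, held for S100a8 (0.98 and -0.09) and S100a9 (0.80 and -0.13), whose shares in thinned members were not above those in T cells (S100a9 25.7% and 31.9% of members against 34.0% and 38.3% of T cells), and for Plac8 (0.33 and -0.27), Ccl2 (0.16 and -0.13), Sema4d (0.46 and -0.25) and the interferon-induced Ifi205 (0.41 and -0.32) and Oasl2 (0.47 and -0.17). S100a8 (459 to 218 CPM) and S100a9 (433 to 178 CPM) fell only in the set with Cd300e, Clec4b1 and Pparg. Ccl2 fell only in the Ly6c2 set (444 to 334 CPM), where Plac8 (4114 to 4726 CPM) and Ifi205 (236 to 258 CPM) rose.

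For 3 of 283 listed or named genes, and 20 (0.24%) of all 8348, members and the other C1q macrophages stood in opposite order in the 2 libraries, also untested. The log2 ratio of members over others in the library labelled cko and then in that labelled wt was 0.23 and -0.84 for S100a8, -0.33 and 0.29 for Mmp12, and -0.027 and 0.17 for Fcer1g.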

How the results depend on the processing

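No paired analysis was possible because each group was 1 library and no test was made. Of 574 values of single genes under alternative settings, 469 stayed within the interval of counting error, 103 moved and 2 reversed: Ppbp to 0.37 with at least 10 UMIs of Vcam1, Ccl8 and Folr2, and the lead of Mmp9 in the Folr2-led subset to -1.28 when a lead required 2 of 3 of the summed UMIs. Il7r had no UMI in members of the library labelled wt with at least 10 UMIs of the 3 genes or with minimums per 10000 UMIs, and gave no value there. That rule for leads gave Vcam1-led shares of 31.7% and 50%, Ccl8-led shares of 27.2% and 18.9% and Folr2-led shares of 6.93% and 7.87%. Members against the other C1q macrophages gave 67 genes higher and 65 lower within 10000 to 25000 UMIs (61 and 58 of them shared with the 157 and 124), 65 and 63 at a minimum of 200 UMIs, and 449 and 372 at 1.5-fold. The library labelled cko against that labelled wt gave 396 higher and 140 lower at a minimum of 50 UMIs, 45 and 9 at 400 and 29 and 5 at 2-fold, which change by construction. It gave 122 higher and 48 lower within 10000 to 25000 UMIs (66 and 15 shared with the 218 and 54), 307 higher and 90 lower with equal weight of the 3 subsets (180 and 37 shared), and 106 higher and 43 lower (47 and 11 shared) among members with under 5 UMIs of Cd300e, Clec4b1 and Pparg. Most calls of either direction were thus not made under these depth and marker limits. The last 2 settings were chosen after the data were seen, and fewer cells enter those with a depth or marker limit. The share of members kept its interval across 0 under all 9 alternatives, and as a share of C1q macrophages the log2 ratio was -0.01. Depth limits genes under 100 UMIs in members, such as Il12b and Pdcd4.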
